A study of Mus musculus with 7 samples.

Results

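The genes described here make or carry sulfated sugar chains on the surface of mouse pluripotent cells. The 10 members were chosen by gene symbol: the sulfotransferases Chst1, Chst2 and Chst7, the heparan sulfate enzymes Ndst1, Ext1 and Hs6st1, the syndecans Sdc1 and Sdc4, and the glypicans Gpc3 and Gpc4. Chst1 was chosen because its rise in epiblast stem cells (EpiSCs) over the embryonic stem cell (ESC) line R1 was the largest fitted increase among all genes tested. The others were set beside it to ask whether it moved with related genes. Of the 10 symbols, 9 were matched to 13 of the 25697 probes, and all 9 genes were among the 9213 tested. No probe listed under Ndst1 was analysed here.

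Illumina bead arrays in 1 colour had measured RNA of 7 mouse lines, 1 array each. EpiSCs resemble the epiblast after implantation and retain pluripotency. They were represented by 6 lines, named OG2.1 and OG2.2, E3 and E5, T9, and C1a1. ESCs stand closer to the epiblast before implantation, and R1 was the single ESC line. The labels give no treatment, strain, culture medium or passage for any line. A label field named for a spot14 GFP holds only the line's name, in the EpiSC lines as in R1, so whether a line carried a reporter is not stated. Levels are normalized log2 intensities, and a probe counted as above background where its detection p-value on that array was under 0.01. Because R1 was sampled once, a difference between the cell types cannot be told apart from features of that line, culture or array. Levels of different genes come from different probes and are not compared with each other.

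Sulfotransferases of the Golgi move sulfate from the donor PAPS onto growing sugar chains. Keratan sulfate is built of galactose and N-acetylglucosamine and is sulfated at the 6-O position of either sugar, whereas heparan sulfate is polymerised by exostosins and then deacetylated, epimerised and sulfated. Heparan sulfate chains sit on transmembrane syndecans and on lipid-anchored glypicans, where they bind FGF, Wnt and other signals that pluripotent cells depend on. In mouse, heparan sulfate made by Ext1 is needed for ESCs to leave the self-renewing state in response to FGF.

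The start-site sequences of Chst1, Chst2, Chst7 and Gpc3 are shown because in these 4 genes every EpiSC array lay above R1, and their CpG content differs. The same held for the brightest Sdc1 probe, but the Sdc1 probes disagreed and that window is not shown. RefSeq windows on GRCm38.p6, from 250 bases before to 50 bases after the start, were matched for 8 members. CpG dinucleotides are in capitals, and each sequence runs 5′ to 3′ on the gene's strand. The windows are chr2:92600867-92601166 (plus strand) for Chst1, chr9:95407221-95407520 (minus strand) for Chst2, chrX:20059320-20059619 (plus strand) for Chst7 and chrX:52613925-52614224 (minus strand) for Gpc3.
Chst1: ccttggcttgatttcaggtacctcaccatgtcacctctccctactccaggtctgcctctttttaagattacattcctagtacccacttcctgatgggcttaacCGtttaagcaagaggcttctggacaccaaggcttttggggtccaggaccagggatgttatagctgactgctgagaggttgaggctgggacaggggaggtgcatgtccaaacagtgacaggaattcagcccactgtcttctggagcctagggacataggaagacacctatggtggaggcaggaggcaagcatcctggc
Chst2: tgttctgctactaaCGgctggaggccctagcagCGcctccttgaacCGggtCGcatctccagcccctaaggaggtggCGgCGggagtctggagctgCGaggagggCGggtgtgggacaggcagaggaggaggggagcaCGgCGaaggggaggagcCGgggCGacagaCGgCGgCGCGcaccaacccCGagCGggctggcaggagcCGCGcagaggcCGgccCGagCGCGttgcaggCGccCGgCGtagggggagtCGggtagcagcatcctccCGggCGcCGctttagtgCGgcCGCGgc
Chst7: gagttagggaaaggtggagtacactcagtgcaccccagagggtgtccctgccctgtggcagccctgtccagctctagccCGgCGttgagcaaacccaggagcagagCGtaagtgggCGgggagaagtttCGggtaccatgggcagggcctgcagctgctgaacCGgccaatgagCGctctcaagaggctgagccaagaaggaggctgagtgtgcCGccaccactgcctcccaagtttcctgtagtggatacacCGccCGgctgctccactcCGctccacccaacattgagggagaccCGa
Gpc3: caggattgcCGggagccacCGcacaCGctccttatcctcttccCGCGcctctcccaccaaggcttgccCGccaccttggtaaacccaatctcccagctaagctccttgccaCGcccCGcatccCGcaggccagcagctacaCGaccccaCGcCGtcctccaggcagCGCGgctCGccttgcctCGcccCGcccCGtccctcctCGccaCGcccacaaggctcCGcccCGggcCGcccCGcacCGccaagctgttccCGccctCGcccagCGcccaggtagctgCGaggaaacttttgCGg

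The Chst1 window held 1 CpG, against 34 in Chst2, 12 in Chst7 and 30 in Gpc3. Of 32851 windows of this length in the table, 14.1% held no more than 1 CpG, and the median count was 7.0. The other matched members held 14 (Sdc1), 22 (Sdc4), 22 (Gpc4) and 47 (Hs6st1). The GC box GGGCGG, searched on both strands, was present in 7 of the 8 member windows and in 35.7% of all windows, and these letters were not in the Chst1 window. The table gives 1 window for Chst1, and any other start of the gene was not examined. The histogram of CpG counts places Chst1 among the CpG-poor windows and the other 7 members to its right.

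**Figure D1:**
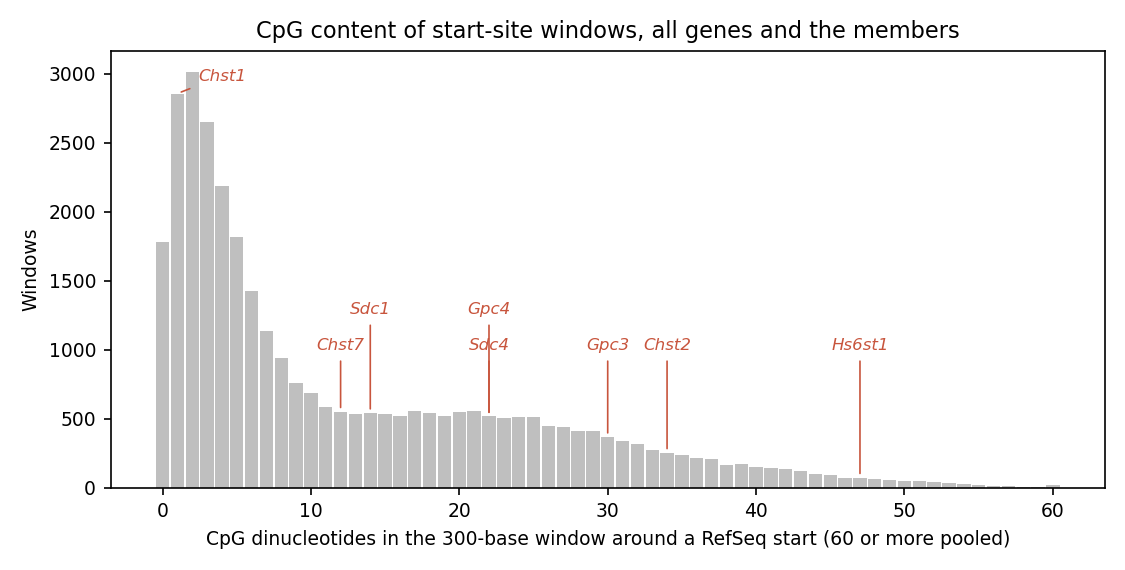
The x axis gives the number of CpG dinucleotides in the 300-base RefSeq start-site window, and the bars give the number of windows among 32851. Red names mark the 8 matched members, with Chst1 at 1 CpG and the others between 12 and 47.

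The lines matched their labelled cell types. All 9 tested naive pluripotency markers were above background in R1, against 2 to 5 in the EpiSC lines, while Fgf5, a growth factor gene of the postimplantation epiblast, passed that limit in all 6 EpiSC lines but not R1. All 5 core pluripotency genes were above background on each of the 7 arrays. Probes above background numbered 10642 to 11574 in the EpiSC lines and 10670 in R1, and precision is limited by the number of arrays. Correlations across genes ran from 0.937 to 0.973 between EpiSC lines and from 0.844 to 0.872 between an EpiSC line and R1.

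Chst1, which encodes the keratan sulfate galactose 6-O-sulfotransferase, was high in every EpiSC line and not above background in R1. Its level was 11.25 in OG2.1, 12.03 in OG2.2, 12.01 in E3, 11.88 in E5, 12.32 in T9 and 12.09 in C1a1, against 4.40 in R1. The 6 EpiSC lines lay within 1.06 of each other, and none came near R1. On the unnormalized scale the Chst1 probe read 2427 (OG2.1) to 5522 (T9) intensity units in the EpiSC lines and 101.2 in R1, where its detection p-value was 0.881. The EpiSC mean was 11.93 ± 0.36 (SD, n = 6), a difference from R1 of 7.53 (SE 0.37), or at least 75.4-fold. This bound sets the EpiSC mean against the lowest normalized value of any detected probe on the R1 array. Like the other bounds in the text, it holds only for the normalization used. The difference is the value by which Chst1 was chosen and is given as a description. It was 9.83 with the authors' deposited log2 values. Without background correction it was 5.32, a smaller fold than the bound.

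Chst2, an N-acetylglucosamine 6-O-sulfotransferase gene, was near background on all arrays. Its level was 6.66 in OG2.1, 6.03 in OG2.2, 5.42 in E3, 6.38 in E5, 5.22 in T9 and 5.87 in C1a1, against 4.76 in R1. The probe passed the detection limit in 4 EpiSC lines, but in E3, T9 and R1 it did not, and all 6 EpiSC values lay above that of R1. The difference of 1.17 (SE 0.51) corresponds to a bound of at least 1.18-fold.

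Chst7, whose enzyme sulfates N-acetylglucosamine and, in chondroitin, N-acetylgalactosamine, was above background in every EpiSC line but not in R1. Its level was 6.70 in OG2.1, 6.63 in OG2.2, 7.49 in E3, 5.98 in E5, 7.17 in T9 and 8.12 in C1a1, against 4.66 in R1. C1a1 was highest and E5 lowest, and the groups did not overlap. The EpiSC mean was 7.02 ± 0.75 (SD, n = 6), a difference of 2.36 (SE 0.67) and a bound of at least 2.50-fold. With the authors' deposited log2 values the differences were 3.74 for Chst7 and 2.06 for Chst2, and without background correction they were 1.01 and 0.42.

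**Figure D2:**
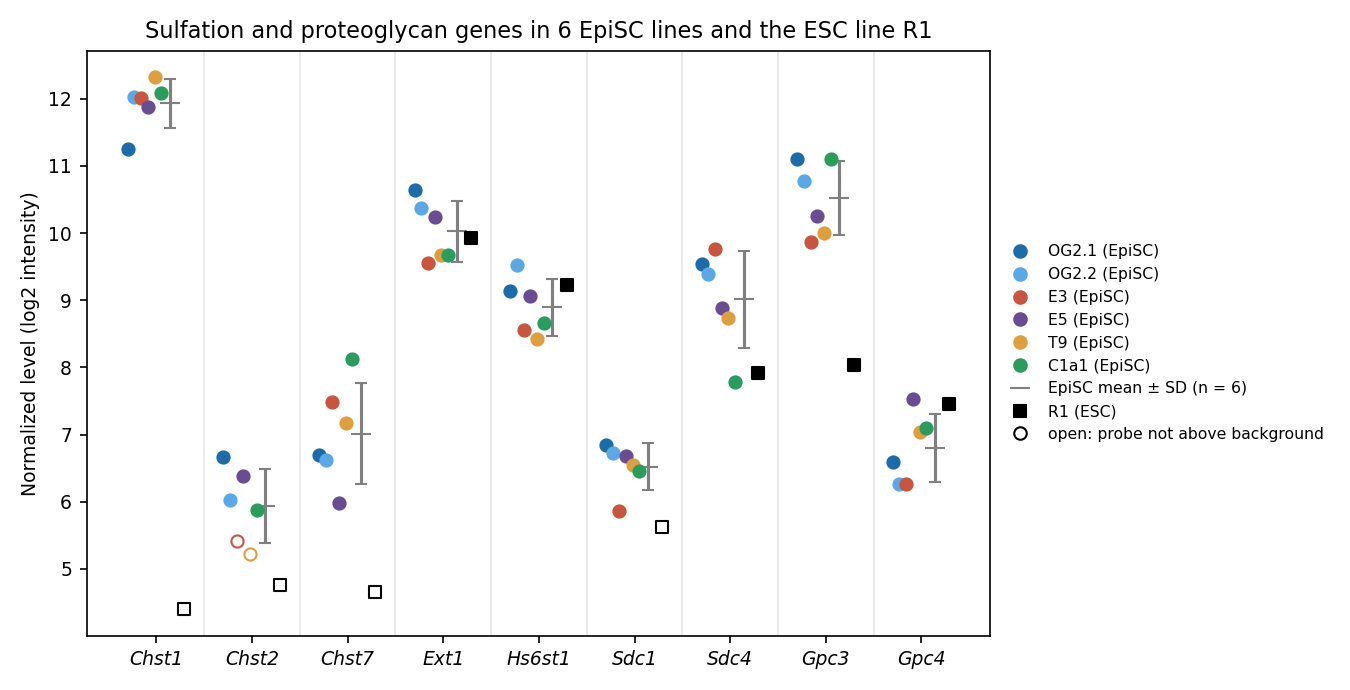
The y axis gives the normalized level (log2 intensity) of each member on each array. Circles are the 6 EpiSC lines, the grey bar is their mean ± SD, squares are R1, and open symbols mark probes not above background. Chst1 stands at 11.25 to 12.32 in the EpiSC lines and at 4.40 in R1.

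The heparan sulfate enzymes gave no such separation. Ext1, a subunit of the polymerase that lengthens the heparan sulfate chain, was above background on every array. Its level was 10.65 in OG2.1, 10.37 in OG2.2, 9.56 in E3, 10.24 in E5, 9.67 in T9 and 9.67 in C1a1, against 9.92 in R1. R1 fell inside the range of the EpiSC lines, and the difference was 0.11 (SE 0.43). Hs6st1, which adds 6-O-sulfate to the glucosamine of heparan sulfate, was likewise above background throughout. Its level was 9.14 in OG2.1, 9.53 in OG2.2, 8.55 in E3, 9.06 in E5, 8.42 in T9 and 8.66 in C1a1, against 9.23 in R1. The groups overlapped, with a difference of -0.34 (SE 0.41). A further Hs6st1 probe was above background on no array.

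Among the 4 core proteins that are members, the glypican Gpc3 differed most between the cell types. Loss of this gene causes an overgrowth syndrome in humans. Its level was 11.11 in OG2.1, 10.77 in OG2.2, 9.87 in E3, 10.26 in E5, 10.0045 in T9 and 11.10 in C1a1, against 8.04 in R1. All 6 EpiSC lines lay above R1, with E3 the nearest to it. The EpiSC mean was 10.52 ± 0.55 (SD, n = 6), a difference of 2.48 (SE 0.51) or 5.58-fold. A separate Gpc3 probe gave a difference of 2.78 and placed the EpiSC lines in the same order.

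Gpc4, the neighbouring glypican gene on the X chromosome, did not move with Gpc3. Its level was 6.59 in OG2.1, 6.26 in OG2.2, 6.27 in E3, 7.53 in E5, 7.03 in T9 and 7.10 in C1a1, against 7.45 in R1. E5 alone lay above R1, and the difference was -0.65 (SE 0.48). Thus 2 adjacent genes of 1 family had differences of opposite sign, although that of Gpc4 was small against its error.

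Sdc4, a syndecan of focal adhesions, was at 9.54 in OG2.1, 9.38 in OG2.2, 9.77 in E3, 8.88 in E5, 8.74 in T9 and 7.78 in C1a1, against 7.91 in R1. It was higher in 5 EpiSC lines than in R1 and slightly lower in C1a1, and the difference was 1.10 (SE 0.65). Sdc1, the syndecan of epithelia, was at 6.85 in OG2.1, 6.72 in OG2.2, 5.86 in E3, 6.68 in E5, 6.55 in T9 and 6.46 in C1a1, against 5.63 in R1. That probe, the brightest of 3, put all 6 EpiSC lines above R1, with a difference of 0.89 (SE 0.36), or 0.38 without background correction. It was not above background in R1, so the size of that difference is uncertain. Another Sdc1 probe, above background on all 7 arrays, differed by 0.21 and its groups overlapped, so the Sdc1 probes disagreed. The dimmest was above background on no array.

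Of all 9213 genes, limma called 15.2% different between EpiSCs and R1. Counted together, all 6 EpiSC lines lay above R1 for 5 of the 9 members (Chst1, Chst2, Chst7, Gpc3 and Sdc1) and below it for 0. Over all genes the shares were 29.7% and 26.1%. A difference of at least 1 was seen in 5 of 9 members (Chst1, Chst2, Chst7, Sdc4 and Gpc3) and in 13.8% of all genes. The median difference was 1.10 over the members and 0.05 over all genes. These counts come from the comparison that chose Chst1, and the members were chosen with earlier results of these data known, so they are descriptions. Chst1, Chst2 and Chst7 were not above background in R1. They passed the detection filter through the EpiSC lines alone, which favours a rise. Within the EpiSC group the members varied somewhat more than most genes, with a median SD of 0.51 against 0.33 over all genes.

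Likeness to Chst1 was measured over the 7 arrays as the root mean square difference between profiles, each centred on its own mean. It is set mostly by the size of the difference from R1, the value by which Chst1 was chosen, so the order below is a description that nearly repeats the order of those differences. The 5 nearest of 9212 genes were the growth factor gene Fgf5 (0.78), the epithelial splicing regulator gene Esrp1 (0.83), the claudin gene Cldn6 (0.88), the ephrin receptor gene Epha1 (0.91) and the zinc finger gene Zfp608 (0.91). Gpc3 took place 190 (1.89) and Chst7 place 200 (1.90), ahead of Chst2 at 1219, Sdc1 at 1383 and Sdc4 at 1424. Ext1, Hs6st1 and Gpc4 came at 4960, 6798 and 7549. In the order of fitted increases Gpc3 held place 194, Chst7 place 229 and Gpc4 place 7515. The plot of profiles shows that Chst1 and its 5 nearest genes shared a drop in R1, which Chst7 and Gpc3 had at a smaller size.

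**Figure D3:**
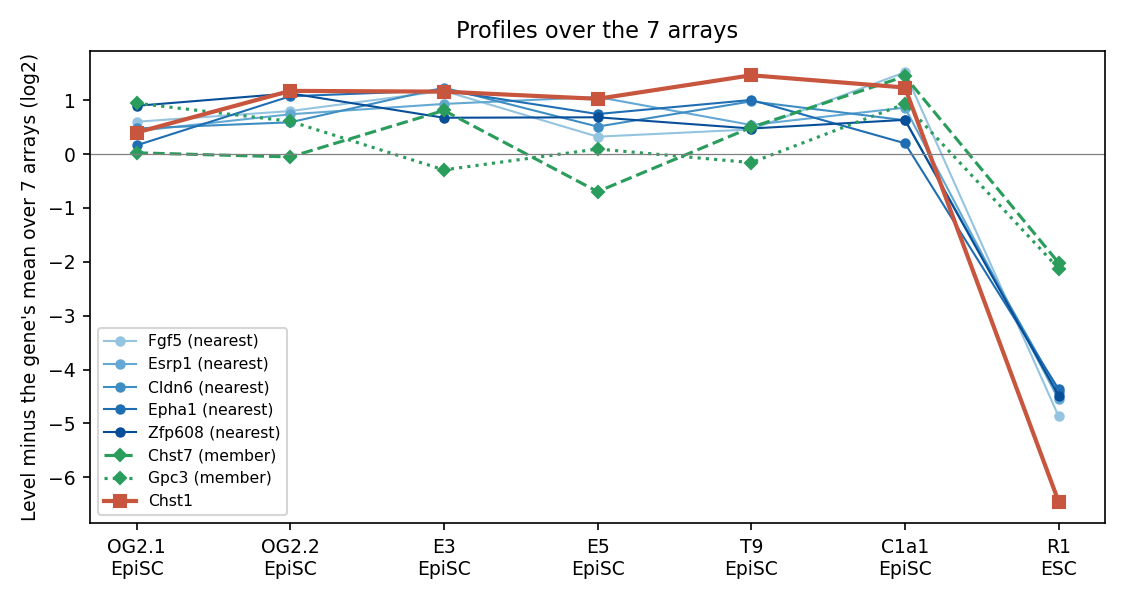
The y axis gives each gene's level minus its mean over the 7 arrays (log2), and the x axis gives the arrays, joined by lines only to guide the eye. Chst1 (red squares) and its 5 nearest genes (blue) are low in R1, with an SD over the 6 EpiSC lines of at most 0.46, while the members Chst7 (SD 0.75) and Gpc3 (SD 0.55), in green, are less low in R1.

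Over the 6 EpiSC lines alone, where Chst1 had an SD of 0.36 against a median of 0.33 over all genes, Pearson's r with Chst1 was -0.84 for Chst2 (Spearman's rho -0.83), -0.77 for Ext1 (-0.49), -0.53 for Gpc3 (-0.31) and -0.47 for Hs6st1 (-0.54). It was -0.43 for Sdc4 (-0.66), -0.42 for Sdc1 (-0.49), 0.15 for Gpc4 (0.03) and 0.37 for Chst7 (0.49). These are descriptions over 6 lines with 1 array each. They leaned on OG2.1 and T9, the lines farthest from the Chst1 median: without both, r was -0.60 for Chst2 and -0.50 for Ext1, and for Chst7 it was 0.88. The sign turned for Gpc3 (0.57) and Gpc4 (-0.50).

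Differences between EpiSC lines did not enter the rule that chose the members and were tested, although earlier results of these data were known at the choice. Each line was set against the mean of the other 5 with limma, 2-sided, and p-values were adjusted over all genes by Benjamini-Hochberg. Of 54 tests (9 members in 6 lines), 0 passed an adjusted p of 0.05, and 4 (7.41%) had an unadjusted p under 0.05. Over all genes 0.0308% and 5.64% did, so the members' share was near the background. The 4 were Sdc4 in C1a1, Sdc1 in E3, Chst1 in OG2.1 and Chst7 in C1a1.

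By line, the share of all genes with an adjusted p under 0.05 was 0.0434% in OG2.1, 0% in OG2.2, 0.0651% in E3, 0% in E5, 0.0109% in T9 and 0.0651% in C1a1. The share with an unadjusted p under 0.05 was 5.98% in OG2.1, 5.29% in OG2.2, 6.23% in E3, 8.1% in E5, 2.18% in T9 and 6.07% in C1a1. Every line thus gave few calls over all genes. Sdc4 in C1a1 was at 7.78, against 9.26 ± 0.44 (SD, n = 5) over the rest, a difference of -1.48 (SE 0.42, limma adjusted p = 0.618). Chst7 in C1a1 was at 8.12, against 6.79 ± 0.58 over the rest, a difference of 1.33 (SE 0.52, limma adjusted p = 0.809). C1a1 thus held the highest Chst7 and the lowest Sdc4 level of the 6 lines. Chst1 in OG2.1 was at 11.25, against 12.07 ± 0.16, a difference of -0.81 (SE 0.25, limma adjusted p = 0.712). Sdc1 in E3 was at 5.86, against 6.65 ± 0.15, a difference of -0.79 (SE 0.24, limma adjusted p = 0.630), but E3 was the next to highest line for the other detected Sdc1 probe.

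A shared order of the lines was seen after the values were known and is given without a test. The 3 lines were picked from the members' own values, which in itself favours a share above that of all genes. OG2.1, OG2.2 and E5 held the 3 highest levels of Chst2, Ext1, Hs6st1 and Sdc1 among the 6 EpiSC lines, 4 of 9 members, against 5.84% of all genes and 5 of 74 other genes of the pathway. For Sdc1 this held for the brightest probe, while the other detected probe had the same 3 lines lowest. Chst7 ran the other way, with OG2.1, OG2.2 and E5 lowest, as in 6.9% of all genes. In Ext1 the 3 lines were at 10.24 to 10.65, and in the other 3 EpiSC lines the range was 9.56 to 9.67.

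Markers of fibroblasts, from which feeder layers are made, were also highest in these 3 lines by their mean, but not gene by gene. The mean level of 9 fibroblast genes was 7.99 in OG2.1, 7.53 in OG2.2 and 7.77 in E5, and 6.55 in E3, 6.95 in T9 and 7.29 in C1a1. These 3 lines were the highest for 3 of the 9 genes (Fstl1, Loxl1 and Fbln1). Others ran differently, such as Col6a1, at 4.81 in E5 against 6.43 in C1a1, and Mmp2, at 9.30 in E5 against 10.24 in C1a1. Of the 9 genes, 4 to 8 were above background in the EpiSC lines and 6 in R1, and their summed intensity ran from 1871 to 4872 in the EpiSC lines, against 1631 in R1. Decorin (Dcn), which is also a chondroitin sulfate core protein of the pathway lists, was at 8.99 in OG2.1, 5.81 in OG2.2 and 9.30 in E5, at 4.69 in E3, 4.96 in T9 and 6.82 in C1a1, and not above background in E3, T9 or R1. Another 10 listed fibroblast genes, the collagen genes Col1a2 and Col3a1 among them, were above background on no array. The part of these cells in the order of Chst2, Ext1, Hs6st1 and Sdc1 was not tested. In RNA from whole cultures, more cells of a type and more RNA per cell cannot be told apart.

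**Figure D4:**
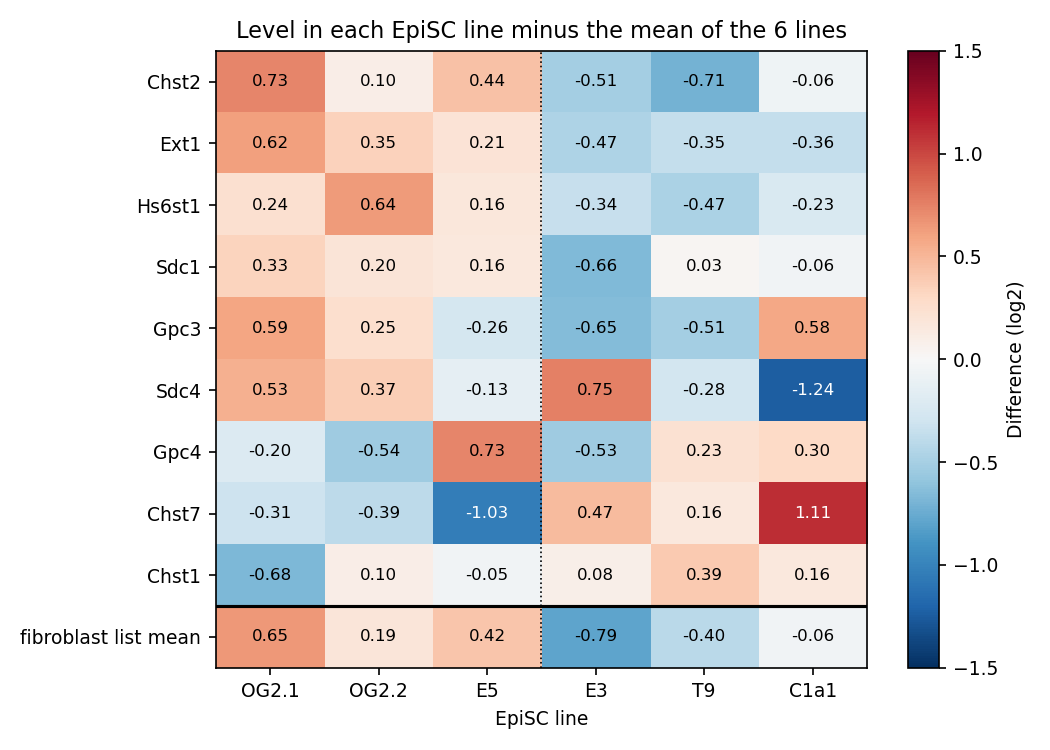
Each cell gives the level of a member in an EpiSC line minus the mean of the 6 lines (log2; red high, blue low), with the mean of 9 fibroblast genes in the bottom row. The dotted line separates OG2.1, OG2.2 and E5, which are high for Chst2, Ext1, Hs6st1, Sdc1 (brightest probe) and the fibroblast mean, from E3, T9 and C1a1. This split was picked after the values were seen.

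Markers of extraembryonic endoderm and trophoblast, other cell types that such cultures can hold, went both ways. The summed intensity of 11 endoderm markers was 1861 to 3382 in the EpiSC lines, against 4800 in R1, and Gata4 and Afp were above background on no array. Within that list Sox17 was higher in EpiSCs by 0.63 on average and Lamb1 by 0.42. The summed intensity of 7 trophoblast markers was 2262 to 8404 in the EpiSC lines, against 3804 in R1, and their mean level was 6.76 to 7.98 in the EpiSC lines, against 6.65 in R1. Of these, Krt18 was higher in EpiSCs by 4.32 and the difference of Tfap2c was -5.14, while Elf5, Hand1 and Plac1 were above background on no array. The part of either cell type in the members' differences was not tested. Chst7, Gpc3 and Gpc4 lie on the X chromosome, where the number of active copies can differ between lines. Xist, the transcript of the inactive X, was detected at 8.83 in OG2.1, 9.36 in OG2.2, 8.97 in T9 and 8.33 in C1a1, but not above background in E3, E5 or R1. In these 4 lines Gpc3 was at 10.0045 to 11.11, and in E3 and E5 it was at 9.87 and 10.26, so that T9 fell between the lines without Xist. Chst7 was at 6.63 to 8.12 in the 4 lines, 7.49 in E3 and 5.98 in E5, and Gpc4 at 6.26 to 7.10, 6.27 and 7.53. E3 and E5 differed in Y genes. Eif2s3y was at 9.96 in E3 and 10.54 in R1, but not above background in the other EpiSC lines, E5 (4.95) among them. Kdm5d was at 7.00 in E3, 6.17 in R1 and 4.52 in E5, while Uty differed little (5.88, 6.26 and 5.69). The part of X dosage was not tested.

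Other genes of the pathway were taken from 8 lists of enzymes, donors and core proteins, chosen with earlier results of these data known. Of 146 listed genes, 131 were on the array and 83 were tested, 74 of them not members. Limma called 9 of the 74 higher in EpiSCs (12.2%) and 4 lower (5.41%), against 7.1% and 8.11% of all genes. Each of the 4 lower genes (Notum, Chst5, Cspg5 and Srgn) was above background in no EpiSC line. For these genes the spread among EpiSC lines, on which the test rests, is that of values near background. Of the 9 higher genes, Sdc2, Ncan and Chst15 were not above background in R1. Such genes passed the detection filter only through the side where they were high, which favours a call in that direction. The median difference was 0.21 over the 74 genes and 0.05 over all genes. Between EpiSC lines 0 of 444 tests of the 74 genes passed, with 29 at an unadjusted p under 0.05. Over all genes the shares in these line contrasts were 0.0308% and 5.64%. The plot by list shows the spread around these medians. With members left out it was widest among the core proteins, while Chst1 widens the keratan sulfate row beyond them.

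**Figure D5:**
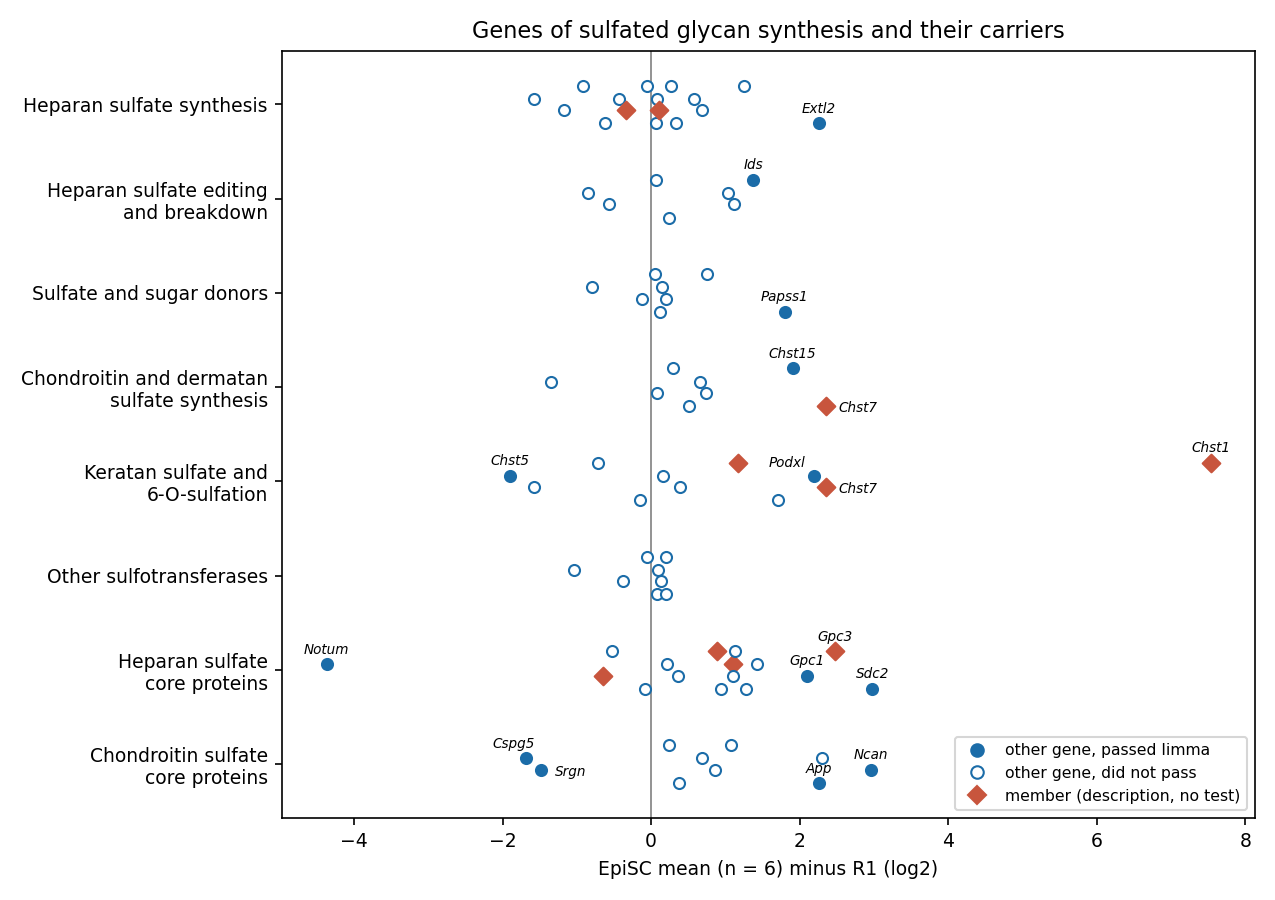
The x axis gives the EpiSC mean (n = 6) minus R1 (log2), and each row is a list of genes. Filled circles passed limma at an adjusted p of 0.05, open circles did not, and red diamonds are members, shown without a test. Sdc2, Gpc1, Podxl, Papss1 and Extl2 are among the 9 genes that passed on the right, and Notum stands farthest left at -4.37.

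Among the other core proteins of heparan sulfate proteoglycans, 2 of 12 rose, 1 fell and 9 did not pass (median 1.03). The shares were 16.7% higher and 8.33% lower, against 7.1% and 8.11% of all genes. Sdc2, a syndecan, was at 7.84 to 9.002 in the EpiSC lines and not above background in R1 (5.41), a difference of 2.98 (SE 0.42, limma adjusted p = 0.00291) and at least 6.47-fold. Gpc1, a glypican, was at 10.65 to 11.28 in the EpiSC lines, against 8.91 in R1, a difference of 2.09 (SE 0.29, limma adjusted p = 0.00274). Both genes stood above R1 in every EpiSC line, as Gpc3 did. Notum, counted in this list, is the gene of a secreted enzyme that inactivates Wnt proteins at glypicans. It was above background in no EpiSC line, against a level of 8.995 in R1, and EpiSCs were lower by at least 10.8-fold. Its SD of 0.08 over the 6 EpiSC lines is a spread of values near background.

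In the keratan sulfate list, 1 of 8 other genes rose, 1 fell and 6 did not pass (median 0.00). Each way this was 12.5%, against 7.1% higher and 8.11% lower over all genes. Podxl, the gene of podocalyxin, a carrier of keratan sulfate in human pluripotent cells, was at 8.55 to 9.49 in the EpiSC lines, against 6.79 in R1, a difference of 2.19 (SE 0.38, limma adjusted p = 0.00761). Chst5, a relative of Chst1 and Chst2, was above background in no EpiSC line but in R1 (6.56), and EpiSCs were lower by at least 2.0-fold. The sulfotransferase genes of this family therefore did not share 1 direction. B4galt4, a galactosyltransferase gene of the keratan sulfate chain, was not above background in R1 and did not pass, with a bound of at least 1.46-fold higher (1.70, SE 0.49, limma adjusted p = 0.0516), and B3gnt7, its partner in chain growth, had a difference of -1.58 (SE 0.85, limma adjusted p = 0.266).

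Of 14 other genes of heparan sulfate synthesis, limma called 1 higher and 0 lower (median 0.07). These shares were 7.14% and 0%, against 7.1% and 8.11% of all genes. Extl2, an exostosin-like transferase gene that acts on the linker, was at 8.09 to 9.57 in the EpiSC lines, against 6.63 in R1, a difference of 2.26 (SE 0.52, limma adjusted p = 0.0231). Ext2, the partner of Ext1 in the polymerase, differed by 0.34 (SE 0.31, limma adjusted p = 0.521), and the 2-O-sulfotransferase gene Hs2st1 by 0.27 (SE 0.54, limma adjusted p = 0.779). Neither gene passed the test.

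Of 8 donor genes, 1 rose: Papss1, which makes the sulfate donor PAPS, was at 9.57 to 10.47 in the EpiSC lines, against 8.21 in R1, a difference of 1.80 (SE 0.39, limma adjusted p = 0.0183). Of 7 genes of heparan sulfate editing and breakdown, 1 rose: the lysosomal iduronate sulfatase gene Ids differed by 1.38 (SE 0.27, limma adjusted p = 0.0115). Of 7 chondroitin and dermatan sulfate enzymes, 1 rose: Chst15, which adds a further sulfate to chondroitin, was at least 3.13-fold higher (1.90, SE 0.49, limma adjusted p = 0.0350). The Chst15 call was lost without background correction, without the detection filter and without any 1 of OG2.1, E3, E5, T9 and C1a1 (adjusted p up to 0.0753). Among 8 other sulfotransferases limma called 0, with 1 at an unadjusted p under 0.05. The share called higher was 12.5% of the donor genes and 14.3% of each list of 7, against 7.1% of all genes. None of these lists had a gene called lower, against 8.11% of all genes.

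Chondroitin sulfate core proteins split, with 2 of 10 higher, 2 lower and 6 that did not pass (median 0.77). The share was 20% each way, against 7.1% higher and 8.11% lower over all genes. Ncan, the gene of the brain proteoglycan neurocan, was above background in each EpiSC line but not R1, at least 3.78-fold higher (limma adjusted p = 0.00413). App, the amyloid precursor gene, of which some splice forms carry chondroitin sulfate, was higher by 2.26 (SE 0.40, limma adjusted p = 0.00761). Cspg5 and Srgn, the genes of neuroglycan C and of serglycin, a proteoglycan of secretory granules, were above background in no EpiSC line but in R1. They were at least 2.26-fold and 1.76-fold lower in EpiSCs. Genes above background on 1 side of the comparison passed the detection filter through that side, which favours a difference in its direction.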

How the data were processed

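Total RNA of 7 lines was labelled with biotin and hybridized to Illumina bead arrays. The deposited intensity values are probe signals on a linear scale, not normalized, and the deposited detection p-values compare each probe with background on its array, per the file headers. The authors also deposited log2 values with equal quantiles on all arrays. The submitters' processing notes name RMA, lumi and BeadStudio 3.2 without settings. Each detection column followed the signal of its own array most closely.

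Intensities were normalized with neqc (limma 3.58.1, R 4.3.3; background from the detection p-values, offset 16, quantile normalization), which shrinks differences of dim genes. A probe was kept if its detection p fell under 0.01 on any array, and the brightest probe stood for a gene. Of 25697 probes, 23978 had 1 gene symbol, 1719 had none and 0 had several. Limma was fitted to 9213 genes, 2-sided, with Benjamini-Hochberg adjustment at 0.05, for the 6 EpiSC lines minus R1 (residual degrees of freedom 5, which come from the EpiSC lines alone) and for each EpiSC line minus the other 5 (4). The procedure was run on simulated data in which R1 was given the spread of the EpiSC lines. That run cannot show how R1 itself varies. Lines served as replicates, so p-values rest on differences among lines together with their culture and array.

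Members and lists were chosen with earlier results of these data known. The text names the members, up to 3 called genes each way from each list, and the 5 genes nearest to Chst1. Marker genes, pathway genes that were not called, and the order of the lines were picked after values were seen. A fold for a gene below background on 1 side is a bound that sets the dim side at its array's lowest detected normalized value (or at the measured one where that is higher). It is a bound only for the neqc values. Without background correction the log2 differences of Chst1 (5.32), Sdc2 (1.66), Ncan (1.37), Chst7 (1.01) and Chst15 (0.92) were smaller folds than their bounds. So were those of Notum (-2.43), Chst5 (-0.75), Cspg5 (-0.67) and Srgn (-0.55), while that of Chst2 (0.42) was not. Alternatives changed the normalization, background, filter, probe choice and variance model, or left out lines. Slide positions were not used. Start-site sequences are from RefSeq (GRCm38.p6).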

Additional observations from a re-analysis of the deposited data

How the results depend on the processing

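The Chst1 difference moved with the processing of the intensities. It was 9.83 with the deposited log2 values, whose settings are not stated, and 5.32 with no background correction. Leaving out each EpiSC line gave 7.45 to 7.66. The difference was positive in all 14 alternatives. The cause was not tested. The same 2 settings gave 2.06 and 0.42 for Chst2 and 3.74 and 1.01 for Chst7. Sdc1 was at 0.38 without background correction and at 0.31 without OG2.1 and OG2.2, where another probe became its brightest. Ext1 ran from -0.14 to 0.20. Gpc3 (2.13 to 2.63), Sdc4 (0.88 to 1.35), Gpc4 (-0.80 to -0.37) and Hs6st1 (-0.56 to -0.25) kept their sign throughout.

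Genes called between cell types numbered 1401, and 1130 to 1469 in the alternatives. Calls among other pathway genes numbered 8 to 11 higher and 4 to 6 lower. Of 13 called pathway genes, 12 passed in all 14 alternatives and Chst15 in 7. Calls of members between EpiSC lines were 0 in every alternative. The share of calls that were higher was 46.7%, 51.8% with the deposited values and 41.3% without background correction. OG2.1, OG2.2 and E5 were the 3 highest lines for 4 members, or 3 with the mean of probes, in alternatives added after the data were seen. No paired analysis was possible because each line was sampled once and replicate numbers do not link the groups. With 1 R1 array, its own spread is unknown.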
